A study of Mus musculus with 2 samples.

Results

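Binding of Isl1 at the genes of its own protein family and of the adaptors of that family was described from the Isl1 ChIP-Seq of mouse embryos. The 10 genes were the LIM-homeodomain factors Isl2, Lhx1, Lhx2, Lhx3, Lhx4, Lhx5, Lhx6 and Lhx9 and the cofactors Ldb1 and Ldb2, and a peak belonged to a gene when the symbol that the deposited list gave it was that gene's. This selected 24 of the 48295 peaks, and 5 of the 10 genes, out of 12972 genes named in the list. Chromatin came from the cardiogenic mesoderm and heart region of C57BL/6 embryos at E8.25-E9, was pooled from many embryos and was precipitated with an antibody to Isl1 (DSHB clone 39.4D5). There was 1 peak list, without a second condition, a replicate or a height or p-value per peak, so no difference was tested and the values below are descriptions. No genotype or treatment was given in the labels, and the matching input library was not analysed here. A peak list holds no expression, so the labelled tissue could not be checked against its markers.

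LIM-homeodomain factors carry a pair of LIM domains, which bind proteins, and a homeodomain, which binds DNA at sites with a TAAT core. Ldb1 and Ldb2 hold the LIM domains and dimerize, and so join LIM-homeodomain and LIM-only proteins into larger complexes on DNA. Isl1, a member of the same family, marks cardiac progenitors of the second heart field and is needed for the parts of the heart that they form.

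The sequence that most of these peaks shared, with each other and with most peaks of the list, was a long uninterrupted run of purines (A and G). On the other strand it reads as pyrimidines (C and T). A run of at least 25 bp lay within 100 bp of the midpoint in 95.8% of the 24 peaks and in 94.1% of all peaks. Below are the stretches around the peak closest to the transcription start site (TSS) of each of the 5 genes, and the peak of Lhx9 without a run at its centre. They are read from mm9, 5′ to 3′, with the longest run of the peak in capitals as far as it lies in the stretch. Distances are those of the peak midpoint to the TSS, and the part of the Lhx9 peak 388 bp downstream that is annotated as untranslated region was left out.
Lhx2 peak 45.7 kb downstream, chr2:38252469-38252649, plus strand: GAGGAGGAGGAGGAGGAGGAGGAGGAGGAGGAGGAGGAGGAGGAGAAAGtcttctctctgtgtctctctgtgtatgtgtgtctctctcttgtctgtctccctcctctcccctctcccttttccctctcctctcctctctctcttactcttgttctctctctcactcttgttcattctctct
Lhx4 peak 19.3 kb downstream, chr1:157569814-157569994, plus strand: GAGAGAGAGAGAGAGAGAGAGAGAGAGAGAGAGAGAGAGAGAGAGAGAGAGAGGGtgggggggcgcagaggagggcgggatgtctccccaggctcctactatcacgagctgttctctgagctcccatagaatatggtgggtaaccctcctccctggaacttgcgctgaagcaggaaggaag
Lhx5 peak 2.61 kb upstream, chr5:120879197-120879377, plus strand: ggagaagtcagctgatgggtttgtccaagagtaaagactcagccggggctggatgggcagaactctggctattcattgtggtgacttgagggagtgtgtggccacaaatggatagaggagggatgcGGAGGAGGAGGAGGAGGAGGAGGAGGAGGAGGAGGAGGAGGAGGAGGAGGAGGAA
Lhx9 peak 143 bp upstream, chr1:140744209-140744389, plus strand: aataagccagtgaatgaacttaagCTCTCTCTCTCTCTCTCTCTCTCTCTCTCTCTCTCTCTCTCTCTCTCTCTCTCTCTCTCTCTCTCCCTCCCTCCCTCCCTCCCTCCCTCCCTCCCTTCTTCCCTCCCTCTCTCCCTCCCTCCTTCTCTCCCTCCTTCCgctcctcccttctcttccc
Lhx9 peak 388 bp downstream, chr1:140743475-140743752, plus strand: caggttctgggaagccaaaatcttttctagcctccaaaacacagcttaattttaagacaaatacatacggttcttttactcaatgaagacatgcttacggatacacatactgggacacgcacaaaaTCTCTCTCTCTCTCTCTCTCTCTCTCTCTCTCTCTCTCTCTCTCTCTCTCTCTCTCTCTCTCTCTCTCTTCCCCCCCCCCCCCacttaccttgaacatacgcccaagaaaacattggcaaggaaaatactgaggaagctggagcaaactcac
Ldb2 peak 36.9 kb downstream, chr5:45153969-45154149, plus strand: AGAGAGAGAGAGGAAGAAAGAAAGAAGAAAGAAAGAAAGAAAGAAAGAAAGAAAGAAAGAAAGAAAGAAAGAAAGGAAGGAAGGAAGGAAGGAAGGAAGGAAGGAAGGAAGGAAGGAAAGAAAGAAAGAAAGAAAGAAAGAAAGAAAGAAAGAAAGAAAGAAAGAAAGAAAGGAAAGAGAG
The repeat unit differed between these stretches. It also differed between peaks of 1 gene, since the longest repeat of the other Lhx4 peak had a unit of 3 bases. The Lhx2 and Lhx5 stretches held the triplet GGA, those of Lhx4 and Lhx9 the dinucleotide GA or its complement CT, and the Ldb2 stretch GA followed by the tetranucleotides GAAA and GGAA. The Lhx9 stretch 143 bp upstream also held the tetranucleotide CCCT, in a repeat of 34 bp.

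Ldb2, the second Ldb adaptor, had the most peaks of the 10 genes. It lies on the minus strand of chromosome 5 from 44863372 to 45190946, a length of 327.6 kb. All 8 of its peaks lay downstream of the TSS and inside the gene, at 36.9, 54.8, 95.4, 104.1 and 116.3 kb in intron 1 and at 133.5, 207.1 and 237.8 kb in intron 2 of 8 introns. None lay within 10 kb of the TSS. In the same order the peaks were 507, 452, 356, 487, 503, 319, 594 and 615 bp wide. The narrowest peak of all 24, at 133.5 kb, was therefore in the same intron as the 2 widest of this gene. The next protein-coding TSS lies 573.1 kb away on the downstream side (Tapt1) and 166.9 kb away on the upstream side (4930431F12Rik). The midpoint towards Tapt1 lies inside Ldb2. A downstream peak that is closer to the TSS of Ldb2 than to that of Tapt1 therefore has to lie inside the gene. Ldb2 had more peaks than 88.0% of the genes named in the list. Its counterpart Ldb1, the more widely studied Ldb adaptor, had no peak.

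Lhx5, a factor of the developing forebrain, had 7 peaks and, by symbol, more peaks upstream of a TSS than any other of the 10 genes. The gene lies on the plus strand of chromosome 5 from 120881895 to 120891466, and 6 peaks lay upstream of it in intergenic sequence, at 2.61, 5.64, 56.7, 68.5, 77.1 and 103.1 kb. Their widths in that order were 520, 578, 462, 628, 417 and 705 bp. The most distant of them was the widest of all 24 peaks and wider than 91.2% of the whole list. The remaining peak lay 8.91 kb downstream, over an exon at the end of the gene that is annotated as untranslated region, and was 350.0 bp wide. The upstream peaks fell into a near pair, with 2484 bp between them, and 4 distant peaks that began 50581 bp further away. The next protein-coding TSS lies 315.4 kb away upstream (Rbm19) and 35.5 kb away downstream (Sdsl). Most of the sequence closest to the TSS of Lhx5 is therefore upstream.

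Lhx9, which acts in the gonad, limb and brain, had 6 peaks and the only ones within 1 kb of a TSS. It lies on the minus strand of chromosome 1 from 140721763 to 140745153. One peak lay 143 bp upstream of the TSS (140744118 to 140744481, 363 bp wide) and the next 388 bp downstream (140743475 to 140744062, 587 bp wide), with 56 bp between their edges, and both overlapped an exon annotated as untranslated region. Counting these neighbours as 1 peak gave 23 peaks in all. The list measures these peaks from a TSS at 140744156, which lies inside the annotated gene, as do both peaks. It measures the other peaks of Lhx9 from a second TSS of the gene, at 140739021, which lies 5135 bp further in. From this second TSS, a peak 437 bp wide lay 8.72 kb downstream, in intron 5 of 6. Beyond the end of the gene were peaks 55.1, 57.4 and 65.8 kb downstream of it, which were 559, 385 and 514 bp wide. From the first TSS the distances of these peaks were 13.9, 60.2, 62.5 and 71.0 kb. By the distances in the list, Lhx9 and Lhx5 each had 3 peaks within 10 kb, and no other of the 10 genes had any. Measured from the first TSS alone, Lhx9 had 2 there. Beyond the annotated TSSs of Lhx9, the next protein-coding TSS lies 222.7 kb away downstream (Nek7) and 8.3 kb away upstream (2310009B15Rik).

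Lhx4, which with Lhx3 acts in the pituitary and in motor neurons, had 2 peaks. One was intergenic, 32.8 kb upstream of the TSS on chromosome 1 (157621806 to 157622128, 322 bp wide). The other lay 19.3 kb downstream in intron 2 of 5 (157569658 to 157570150, 492 bp wide). Lhx2, a factor of the eye, forebrain and hair follicle, had 1 peak, in intergenic sequence on chromosome 2, 45.7 kb downstream of the TSS at 38206828, which lies inside the annotated gene (38252302 to 38252817, 515 bp wide). A single peak was also the number of 39.8% of the genes in the list, and the median was 2.

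**Figure D1:**
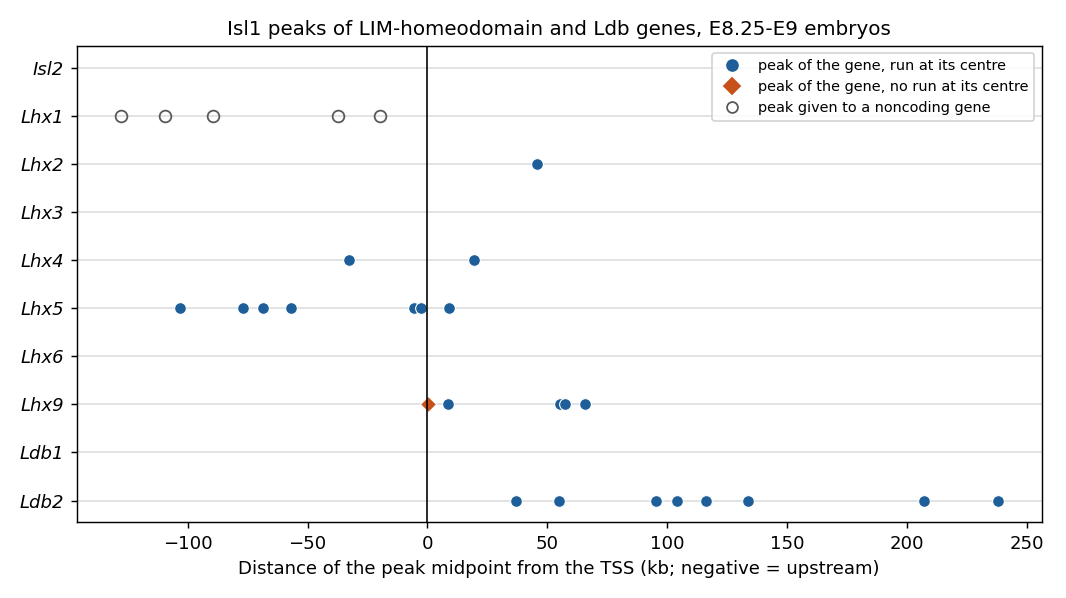
Distance in kb of each Isl1 peak midpoint from the TSS of its gene (x axis, negative values upstream) for the 10 genes (y axis). Filled circles are peaks holding a purine or pyrimidine run at the centre, and a diamond is the peak without one. Both are placed as the list measures them. Open circles are peaks that the list gives to a noncoding gene, placed by their distance from the annotated TSS of Lhx1. All 8 Ldb2 peaks lie downstream, 6 of 7 Lhx5 peaks lie upstream, and the open circles are the 5 peaks upstream of Lhx1. For each of these genes the next protein-coding TSS is farther away on the side named. The Lhx9 diamond at 388 bp covers the circle of the peak 143 bp upstream.

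Isl2, Lhx1, Lhx3, Lhx6 and Ldb1 had no peak. Over the 22238 protein-coding genes of the GENCODE vM1 annotation of mm9, 48.9% had at least 1 peak by the same assignment, so 5 of 10 was near the share of all genes. At a distance of up to 10 kb, 2 of the 10 genes had a peak against 24.1% of all protein-coding genes. For the genes without a peak, the nearest peak of any gene was looked up. Its distance was taken from the nearest annotated TSS of a protein-coding transcript of the gene. Isl2, the closest relative of Isl1 and a factor of motor neurons and retinal ganglion cells, had its nearest peak 303.8 kb upstream, given to Fbxo22. For Lhx3, the partner of Isl1 in motor neurons, it lay 44.8 kb downstream and was given to C330006A16Rik. That of Ldb1 lay 54.2 kb downstream and was given to 9130011E15Rik. For Lhx6, a factor of cortical interneurons, it lay 90.4 kb upstream and was given to Ptgs1.

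Lhx1, which acts in the head organizer and the kidney, was without a peak by name only. Its nearest peak lay 20.0 kb upstream (chromosome 11, 84358688 to 84359143) and was given to Lhx1os, a noncoding gene whose TSS, as the distances in the list place it, lies 239 bp from that of Lhx1. All 3 peaks of Lhx1os, at 20.0, 37.2 and 89.6 kb upstream of Lhx1, had Lhx1 as their closest protein-coding TSS. So did 2 peaks given to the noncoding gene 1700109G15Rik, 109.5 and 127.9 kb upstream. When noncoding genes were set aside and peaks given to the nearest GENCODE vM1 protein-coding gene start, 6 of the 10 genes had a peak, with 29 peaks, and 54.8% of all protein-coding genes had one. The 5 added peaks were all those of Lhx1, and the other 9 genes had the counts of the list.

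Because the closest TSS decides the gene, a gene with distant neighbours can collect more peaks. For each gene the stretch was therefore measured in which its TSS is the closest of all protein-coding TSSs. Its median over all protein-coding genes was 46.5 kb. The stretches of Isl2 (22.3 kb), Ldb1 (29.4 kb), Lhx6 (44.1 kb) and Lhx3 (52.1 kb) were the shortest of the 10, and these 4 had no peak in them. The other stretches measured 118.8 kb for Lhx2, 121.7 kb for Lhx9, 127.4 kb for Lhx4, 154.4 kb for Lhx1, 175.4 kb for Lhx5 and 370.0 kb for Ldb2, and each held at least 1 peak. Among all protein-coding genes, 21.3% of those with a stretch under 30 kb had a peak in it, and 49.3% of those from 30 to 60 kb. The share was 74.0% from 60 to 120 kb, 93.2% from 120 to 250 kb and 99.7% above. Among the 10 genes, too, those with a peak in their stretch were the ones with the longer stretches.

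The number of peaks per length of stretch differed between genes with stretches of like length. At the mean density of the list, 18.9 peaks per Mb, the 4 genes without a peak in their stretch would hold 2.79 peaks between them. Lhx9 held 6 peaks where that density gives 2.3, or 49.3 per Mb, and Lhx5 held 7 where it gives 3.31, or 39.9 per Mb. With stretches of nearly the same length as that of Lhx9, Lhx4 held 2 peaks (15.7 per Mb) and Lhx2 held 1 (8.42 per Mb). Ldb2, with the most peaks, held 8 where the mean density gives 6.98 (21.6 per Mb), and Lhx1 held 5 where it gives 2.91 (32.4 per Mb). Over the 10 stretches together, 1.22 Mb, there were 23.9 peaks per Mb. None of these differences was tested, since a single list gives no error for a count.

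**Figure D2:**
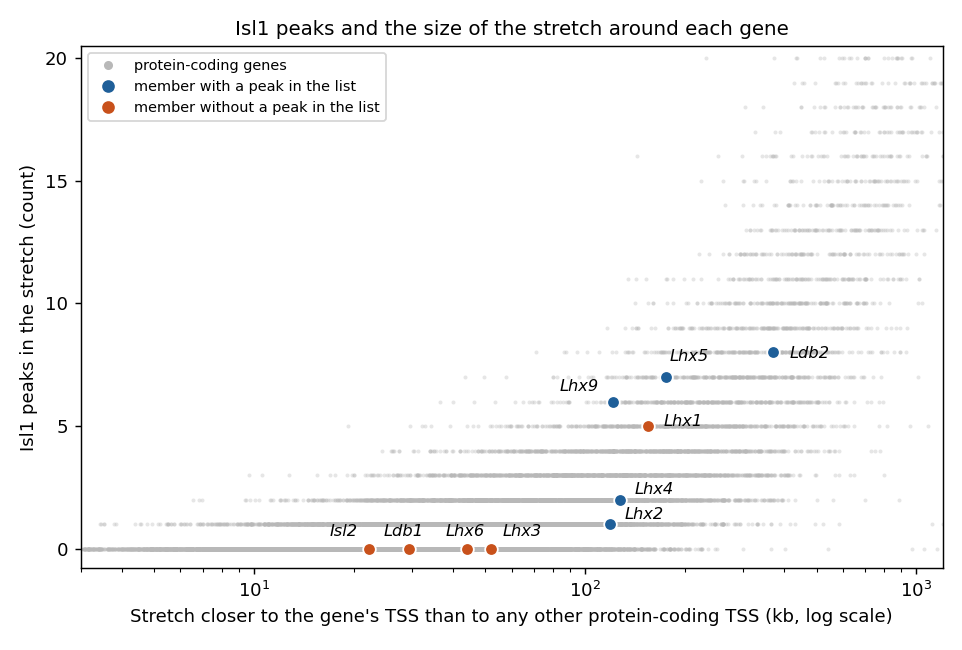
Number of Isl1 peaks (y axis) against the length in kb, on a log scale, of the stretch closest to the TSS of each protein-coding gene (x axis), in grey for 21588 genes, with 650 genes outside the axes, and in colour for the 10 genes. The 4 genes with stretches of 22.3 to 52.1 kb lie at 0 peaks, Lhx9 and Lhx5 lie above Lhx2 and Lhx4, and Lhx1 has 5 peaks that the list names otherwise.

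Together the 24 peaks had a median distance of 55.9 kb from the TSS, ranging from 0.143 to 237.8 kb, against a median of 58.8 kb for all peaks. Their median width was 498 bp, ranging from 319 to 705 bp, against 466 bp. Upstream of the TSS lay 8 of 24 (33.3%, 95% exact binomial interval 15.6 to 55.3%) against 47.5% of all peaks. Over the 16 peaks of the LIM-homeodomain genes, without those of Ldb2, it was 50.0%, and their median distance was 39.3 kb. The closest-TSS rule gives a gene more sequence on the side where the next TSS is farther away, as described above for Ldb2, Lhx5 and Lhx9. Within 1 kb lay 2 peaks (8.33%, interval 1.03 to 27.0%) against 2.58% of all peaks, both of Lhx9, within 10 kb 6 (25%, interval 9.77 to 46.7%) against 15.9%, or 5 with all Lhx9 peaks measured from its first TSS, and within 100 kb 18 (75%, interval 53.3 to 90.2%) against 62.5%. The shares of all peaks upstream and within 1, 10 and 100 kb lay inside these intervals, which treat peaks as independent, although those of 1 gene share a locus. By the annotation 11 peaks were intergenic, 10 lay in introns and 3 over exons, and 13 lay inside the gene to which they were given.

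Within 100 bp of the midpoint, 23 of the 24 peaks held a stretch of purines alone or pyrimidines alone that was 25 bp or longer (95.8%, exact binomial interval 78.9 to 99.9%), against 94.1% of all peaks. In windows of the same size 1 kb to either side of the 24 peaks, 1 of 48 held such a run (2.08%), against 3.96% of these windows for all peaks. The exception was the Lhx9 peak 388 bp downstream of the TSS, whose centre had a run of no more than 16 bp. This peak still held a run of 83 bp, at a distance of 85 bp from its midpoint. Counted over the whole peak, then, each of the 24 had a run of 25 bp or more, as did 96.3% of all peaks. Counted only up to the edges of the peak, the longest run of the 24 peaks had a median length of 116 bp and a range of 51 to 459 bp. The median in all peaks was 108.0 bp. The run of 459 bp lay in the Lhx5 peak 103.1 kb upstream and took up 65.0% of it. This run began at the edge of the peak and may continue outside it. The longest run anywhere in the stretch of Lhx5 was 555 bp. The nearest peak of Lhx3, given to C330006A16Rik, had no run above 11 bp at its centre.

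Most of the peaks held a short tandem repeat of purines or pyrimidines. The repeat could be far shorter than the longest run, as with 62 bp against 459 bp in the Lhx5 peak 103.1 kb upstream. A repeat of at least 20 bp with a unit of 2, 3 or 4 bases was present in 20 of the 24 peaks (83.3%), against 81.2% of all peaks. A unit of 2 bases reached this length in 15 peaks (62.5%, against 50.7%), a unit of 3 in 4 peaks (16.7%, against 19.6%) and a unit of 4 in 7 peaks (29.2%, against 27.5%). Of the 8 Ldb2 peaks, 7 held a repeat of 2 bases, from 44 to 74 bp long. The Lhx4 peak 19.3 kb downstream was the longest of this kind, with 95 bp of GA in a run of 97 bp. All 4 peaks with a repeat of 3 bases were peaks of Lhx2, Lhx4 and Lhx5. The input signal over these repeats was not analysed here, and their part in the peak calls was not tested.

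**Figure D3:**
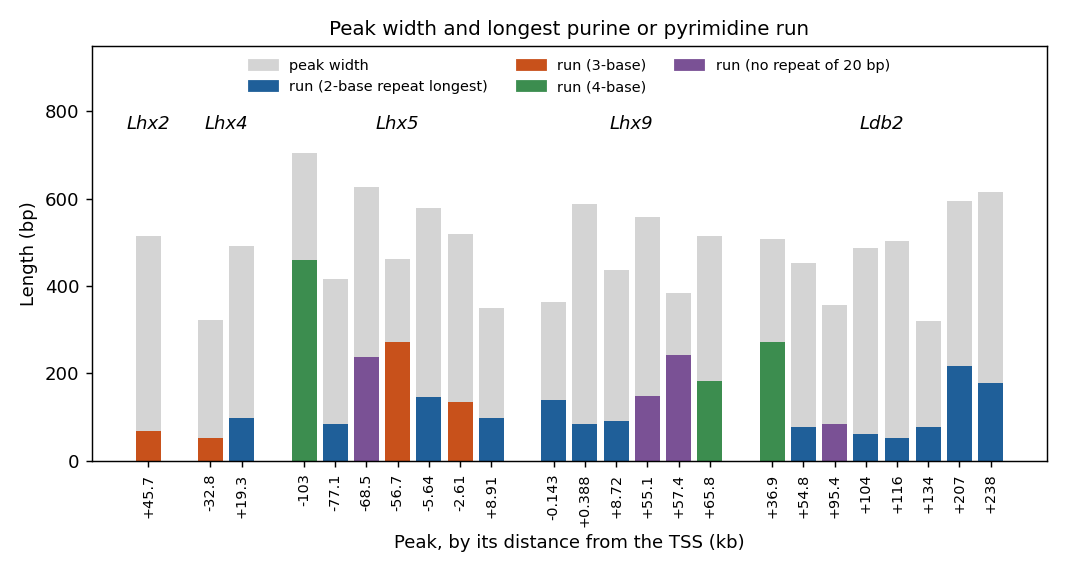
Width in bp (grey bars) and longest purine or pyrimidine run in bp (coloured bars) of each of the 24 peaks (x axis, distance in kb from the TSS, negative values upstream), with colour giving the unit of the longest repeat in the peak. Runs are counted only up to the edges of the peak. The longest repeat has a unit of 2 bases in 13 peaks, of 3 in 4, of 4 in 3 and is under 20 bp in 4.

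The runs around these genes were also counted outside the peaks. The stretches of the 10 genes held 302 runs of at least 25 bp, of which 41 (13.6%) were overlapped by a peak, against 14.3% in the genome. Of the 123 runs of at least 50 bp, 34 (27.6%) were overlapped, against 30.6%. Lhx5 had 10 of 28 such longer runs under a peak, Ldb2 9 of 34, and Lhx9 7 of 17. Lhx1 had 5 of 23, Lhx4 2 of 7 and Lhx2 1 of 5. In the stretches of Isl2, Ldb1, Lhx6 and Lhx3, which hold no peak, there were 30 runs of at least 25 bp, 9 of them of at least 50 bp. The longest of these was 139 bp, near Lhx3.

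The TAAT core of homeodomain sites, searched as TAAT on both strands, lay within 100 bp of the midpoint of 6 of the 24 peaks (25%, exact binomial interval 9.77 to 46.7%), against 35.6% of all peaks. In the windows 1 kb away it was more frequent, in 68.8% for the 24 peaks and in 73.6% for all peaks. A run of purines or pyrimidines alone cannot hold TAAT, so the centres had less sequence in which it could occur. The longest run within 100 bp of the midpoint had a median of 93 bp in the 24 peaks and 92 bp in all peaks. Whether the runs bear on the share with TAAT was not tested. Over the whole peak 17 of 24 held it (70.8%, against 82.8%). Of the 6 peaks with a core near the midpoint, 3 were those of Ldb2 at 54.8, 104.1 and 133.5 kb, 2 were the Lhx9 peaks at the TSS and 1 was the Lhx5 peak 77.1 kb upstream. Longer words that contain TAAT were also counted over the whole peak and on both strands. TAATG was found in 7 peaks (29.2%, against 41.4%), CTAATG in 2 (8.33%, against 11.5%), and TAATTA in 2 (8.33%, against 9%). The peaks with CTAATG were those of Lhx9 65.8 kb and Ldb2 36.9 kb downstream, and the peaks with TAATTA were those of Ldb2 at 95.4 and 133.5 kb. A match gives only the letters in the window and does not show which of them was bound.

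Other genes of the same system were counted beside the 10, by the symbol in the list and then by the closest TSS among protein-coding genes. The shares of all protein-coding genes with a peak are 48.9% and 54.8% by these assignments, and rise with the length of the stretch as given above. All 4 remaining LIM-homeodomain genes, with a median stretch of 293.1 kb, had peaks by either. By symbol Isl1 itself had 33 peaks, Lmx1a 10, Lmx1b 3 and Lhx8 3, and by the closest protein-coding TSS they had 16, 9, 4 and 8. The LIM-only genes, whose products bind Ldb proteins without binding DNA, had a median stretch of 257.9 kb. By symbol Lmo4 had 15 peaks and Lmo1 had 7, and Lmo2 and Lmo3 had none. By the closest protein-coding TSS all 4 had peaks, with 25 for Lmo4, 7 for Lmo1, 1 for Lmo2 and 14 for Lmo3. The nearest peak to Lmo3 lay 124 bp from a TSS of the gene and was given to A830011K09Rik.

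Of the Ldb-binding Ssbp genes, Ssbp2 had 5 peaks by symbol and 9 by the closest protein-coding TSS, and Ssbp3 had 3 by either. Ssbp4, with a stretch of 11.2 kb, had none by either, and Rlim, a ubiquitin ligase for Ldb proteins, had 2. For comparison, 12 of 15 T-box genes had 40 peaks by symbol, and 13 had 65 by the closest protein-coding TSS. Of the 9 genes of the TALE homeodomain class, 8 had peaks by either assignment, 43 by symbol and 63 by the closest protein-coding TSS. The median stretches of these classes were 178.4 and 168.9 kb, against 120.2 kb for the 10 genes, and among all protein-coding genes with stretches of 120 to 250 kb the share with a peak was 93.2%.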

How the data were processed

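Chromatin of E8.25-E9 mouse embryos was precipitated with an antibody to Isl1. The authors used Bowtie2 for mapping to mm9, Picard 1.136 against PCR duplicates and MACS for peaks, left out blacklisted regions and named for every peak the gene with the nearest TSS. What they deposited are other values than counts, namely the start and end of each peak in bp, its signed distance in bp to that TSS and a gene symbol. The list held 48295 peaks. Depth is unknown and no height or p-value is given, and whether replicates were intersected before deposit was not settled. The input was not analysed here.

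Peaks were read with Python 3.11.15 and numpy 2.4.6, and figures drawn with matplotlib 3.10.9. A peak belonged to a gene by its symbol, all 10 genes are named, and related genes were named or counted from lists. The members and lists were chosen with earlier results of these data known. Width is end minus start and side is the sign of the distance. Sequence and gene models came from mm9 (NCBI build 37) and GENCODE vM1. Of 12972 listed symbols 10880 were found there, 757 more through an older symbol, and 1335 were not found. Runs of at least 25 purines or pyrimidines, repeats of at least 20 bp and the words TAAT (alone, followed by G, as CTAATG and as TAATTA) were counted within 100 bp of the midpoint or over the whole peak. The search functions were tested on simulated data. Binomial intervals are exact (Clopper-Pearson, 95%, scipy 1.17.1) and cover counting error only. No test was run.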

Additional observations from a re-analysis of the deposited data

How the results depend on the processing

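Of 23 alternative values for the 7 results, 18 stayed within 1.5 times the count or within the spread or interval of the value reported. Counting only peaks within 10 kb of the TSS left 2 genes and 6 peaks, and counting only peaks wider than the median of the list left 14 peaks. Over the whole peak in place of the centre, the share with a run was 100% and that with TAAT 70.8%. The larger window can keep or raise such a share but cannot lower it. Counting the peaks of Lhx1os for Lhx1, chosen after seeing the data, gave 6 genes and 27 peaks. Measuring all Lhx9 peaks from its first TSS, also chosen after seeing the data, gave a median distance of 58.5 kb. No paired analysis was possible because there is 1 peak list and no second group. Without heights or a replicate, a gene with no peak in the list cannot be told apart from one whose binding was below the threshold of the peak call.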
